A study of Saccharomyces cerevisiae with 15 samples.

Results

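The 48 genes described here encode part of the cytosolic translation apparatus outside the ribosome: 21 aminoacyl-tRNA synthetases, 21 initiation factors and 6 elongation factors. They were listed by name and function, with no threshold on a measured value, out of 6692 yeast features in the table of fragment counts. RNA was sequenced from Saccharomyces cerevisiae strains that carried spt3∆::kanMX4, spt8∆::kanMX4 or gcn5∆::kanMX4, and from a wild type (WT), which is BY4741. All 4 strains were MATa his3∆1 leu2∆ met15∆ ura3∆, so the WT also lacks these marker genes. Each strain received sulfometuron (SM), an inhibitor of isoleucine and valine synthesis, at 1 µg/ml for 25 min, and WT was also sampled without SM. Cultures grew at 30 °C in synthetic complete medium without isoleucine and valine to an OD600 of 0.6 to 0.8. There were 5 groups of 3 libraries, and no deletion strain was sampled without SM here. The labels do not say whether the 3 libraries of a group came from separate cultures, so the p-values reflect the spread of these libraries alone, which may be technical. RNA came from whole cultures, so fewer cells with a transcript and less of it per cell cannot be told apart.

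A synthetase joins an amino acid to its tRNA, initiation factors bring the start tRNA, the mRNA and the ribosome together, and elongation factors deliver tRNAs and move the ribosome. When an amino acid runs short, uncharged tRNA activates the kinase Gcn2, which phosphorylates the initiation factor eIF2. Phosphorylated eIF2 inhibits eIF2B, its own guanine nucleotide exchange factor, so general initiation slows while translation of the GCN4 mRNA rises. Gcn4 is the transcription activator of amino acid biosynthesis genes and binds the sequence TGACTCA. Spt3, Spt8 and Gcn5 are subunits of the coactivator SAGA: Spt3 and Spt8 contact the TATA-binding protein, and Gcn5 is a histone acetyltransferase. The study's title poses the question of how Spt3 and Spt8 act on the transcripts that depend on Gcn4.

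The Gcn4 core, TGACTC, was searched on both strands from 250 bases before to 50 bases after each start codon. It was found at 9 of 21 synthetase genes (42.9%), against 8.0% of the 6001 protein-coding genes searched. It was found at 0 of 21 initiation factor genes and 0 of 6 elongation factor genes. The 9 genes were ALA1, CRS1, GLN4, ILS1, KRS1, THS1, VAS1, YDR341C and YHR020W, and in GLN4 the match lies inside the coding sequence, 20 bases from the start. The full TGACTCA, which contains the core, was found at GLN4, YDR341C and YHR020W (14.3% of synthetases, 2.7% of all genes). A match is a description of letters and not of a bound site. Windows of 5 of these genes follow, beside those of SES1 and GRS1, the synthetase genes with the lowest SM response, which hold no match in the window searched. They run from 240 to 91 bases before the start codon, 5′ to 3′ on the coding strand of R64 (sacCer3), and capitals mark TGACTC or its complement GAGTCA.
YHR020W (prolyl, chrVIII:143756-143905, plus strand): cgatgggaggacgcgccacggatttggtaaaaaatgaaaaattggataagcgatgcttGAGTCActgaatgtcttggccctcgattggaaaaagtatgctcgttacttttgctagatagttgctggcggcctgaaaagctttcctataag
YDR341C (arginyl, chrIV:1153717-1153866, minus strand): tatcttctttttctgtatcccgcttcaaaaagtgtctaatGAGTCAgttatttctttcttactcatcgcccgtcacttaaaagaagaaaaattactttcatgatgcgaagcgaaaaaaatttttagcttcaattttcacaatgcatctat
ILS1 (isoleucyl, chrII:84352-84501, minus strand): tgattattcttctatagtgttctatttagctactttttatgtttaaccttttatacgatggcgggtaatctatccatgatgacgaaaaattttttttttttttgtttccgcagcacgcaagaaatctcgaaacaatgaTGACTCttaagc
VAS1 (valyl, chrVII:671946-672095, plus strand): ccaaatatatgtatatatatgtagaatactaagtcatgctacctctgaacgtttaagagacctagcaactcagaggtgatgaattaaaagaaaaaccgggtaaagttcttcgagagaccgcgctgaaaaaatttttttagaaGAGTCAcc
THS1 (threonyl, chrIX:212259-212408, plus strand): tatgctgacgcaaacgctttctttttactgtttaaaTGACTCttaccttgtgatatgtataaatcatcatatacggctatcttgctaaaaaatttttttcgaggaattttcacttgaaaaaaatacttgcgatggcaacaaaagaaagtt
SES1 (seryl, chrIV:489268-489417, plus strand): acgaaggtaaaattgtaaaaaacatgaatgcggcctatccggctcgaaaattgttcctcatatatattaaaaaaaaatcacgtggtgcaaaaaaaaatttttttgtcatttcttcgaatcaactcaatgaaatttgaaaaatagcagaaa
GRS1 (glycyl, chrII:483458-483607, minus strand): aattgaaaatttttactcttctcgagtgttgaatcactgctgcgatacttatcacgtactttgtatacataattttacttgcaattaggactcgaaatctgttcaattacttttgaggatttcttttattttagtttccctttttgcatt
Counted from the start codon, the first base of the core stood at −182 in YHR020W, −200 in YDR341C, −102 in ILS1, −98 in VAS1 and −204 in THS1. The far end of the ILS1 window runs into the coding sequence of its neighbour SSA3. In the 500 bases before the start codon, a window added after values were seen, the core stood at 10 of 21 synthetase genes (47.6%, against 12.7% of all genes). SES1 (at −384) and DED81 (at −261) were then among them and GLN4 was not, and 1 initiation factor gene, CDC33, had a match. Of the other motifs searched in the first window, the TATA box TATAAA stood at 18 of 48 genes (37.5%, against 45.2% of all), GATGAG at 13 (27.1%, against 20.4%) and the heat shock element GAANNTTC at 3 (6.2%, against 11.8%). These shares were not tested. The list of genes and the printed windows were drawn up with earlier results of these data known.

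Yeast fragments per library ran from 24.8 to 45.7 M, and all 48 genes passed the filter on low counts among 6564 genes tested. Raw counts of a member in a library ran from 1326 (GCN3) to 191290 (YEF3), so counting error is small beside the spread between libraries. ERCC spike-in RNAs, added per amount of total RNA, set the scale between libraries. The trimmed mean of M values (TMM), which takes most genes as unchanged, was the other scale. The choice matters here: with SM in WT the median log2 fold change of all genes was 0.54 by spike-ins and 0.04 by TMM. The deleted gene checked the labels, with 1, 3 and 3 counts of SPT3 in the spt3 libraries, 16, 17 and 11 of SPT8 in the spt8 libraries and 12, 29 and 18 of GCN5 in the gcn5 libraries. A pair of libraries stood apart by yeast fragments per unit of spike-in. They were spt3 library 1, at 49.17 M against 34.83 and 37.55 in the other spt3 libraries, and gcn5 library 3, at 43.23 M against 30.5 and 29.58. All 48 genes had the highest spike-in scaled value of their group in each of these libraries, so results are given without them too. Library names put spt8 and gcn5 in a different set from spt3 and WT. Genotype and set cannot be told apart when spt8 or gcn5 is compared with WT or spt3.

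As a share of yeast fragments, which needs no scale between libraries, the 48 genes made up less of the RNA with SM than without it. The share was 2.77%, 2.75% and 2.88% in WT with SM, against 3.29%, 3.34% and 3.38% in WT without SM. It was 3.14%, 3.15% and 3.15% in spt3 and 3.18%, 3.08% and 3.07% in spt8, both with SM. In gcn5 it was 2.73%, 2.81% and 2.64%. The spt3 and spt8 libraries all lay above the WT libraries with SM and below those without it, while gcn5 overlapped WT with SM. The elongation factors showed the largest gap with SM, at 1.21% ± 0.068 in WT with SM and 1.5% ± 0.018 in WT without SM (SD, n = 3 each). Synthetases made up 0.993% ± 0.0097 with SM and 1.16% ± 0.017 without, and initiation factors 0.592% ± 0.0053 with SM and 0.684% ± 0.019 without. The initiation factor share was highest in spt3, at 0.745% ± 0.01, where all 3 libraries exceeded every library of the other groups.

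**Figure D1:**
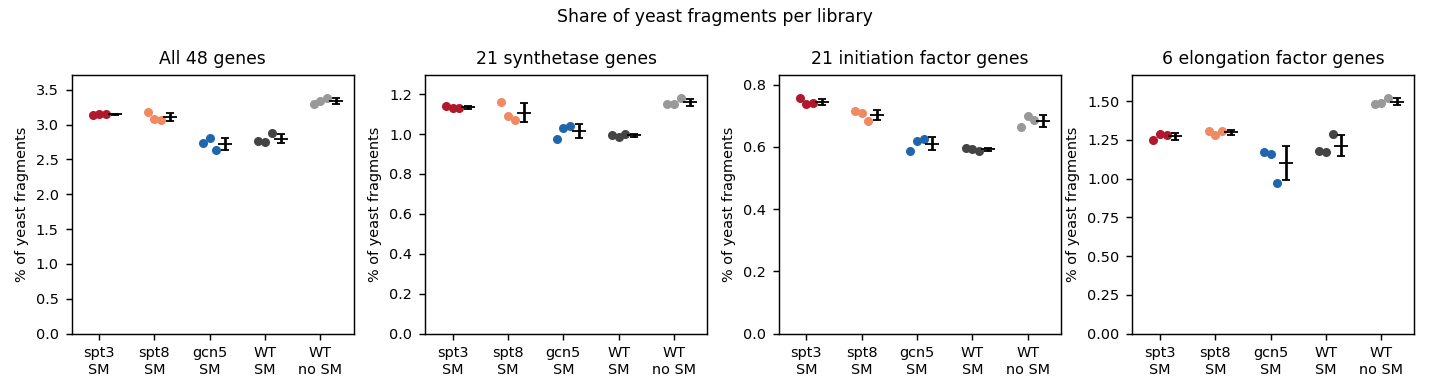
Share of yeast fragments in each library (percent, vertical axis from 0) taken by all 48 genes and by the 3 groups of genes, for the 5 groups of samples. Dots are libraries and the black mark is the mean ± SD (n = 3). For all 48 genes the WT libraries with SM lie between 2.75% and 2.88% and those without SM between 3.29% and 3.38%.

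With SM in WT, most of these transcripts stood below the typical gene of the cell, and by spike-ins a few passed the test in each direction. By spike-ins 4 genes rose, 7 fell and 37 did not pass the test, against 55.7% of all genes tested that rose and 7.57% that fell. Their median log2 fold change was 0.01, which is 0.53 below the median of all genes, and 45 of 48 lay below that median. By TMM 2 rose and 41 fell, against 41.3% and 37.3% of all genes. Without WT library 2 of the group without SM, or WT library 3 of the group with SM, 4 fell by spike-ins. No gene was called in opposite directions by edgeR on the 2 scales.

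The serine and glycine enzymes fell most. SES1, the seryl-tRNA synthetase (YDR023W, chromosome IV, 489508 to 490896), had 3993, 4175 and 3453 spike-in scaled fragments per kb of coding length in WT with SM, against 7644, 7998 and 7446 in WT without SM. GRS1, the glycyl-tRNA synthetase (YBR121C, chromosome II, 481364 to 483367), had 5390, 5915 and 5055 with SM, against 9990, 10184 and 10166 without. In both genes the groups lay far apart. GRS1 shares 159 of its 2004 coding bases with a feature on the same strand. The log2 fold changes were −0.99 (SE 0.18, edgeR adjusted p = 1.44e-05) for SES1 and −0.89 (SE 0.18, adjusted p = 3.57e-05) for GRS1. FRS2 and THS1 also fell, by 0.67 and 0.65 on the log2 scale (adjusted p = 0.00225 and 0.00155). FRS2 encodes the alpha subunit of phenylalanyl-tRNA synthetase and THS1 the threonyl enzyme. All 4 kept their call in each fit that left out 1 library, and by TMM their changes ran from −1.15 to −1.49.

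The prolyl and lysyl enzymes went the other way. YHR020W, the prolyl-tRNA synthetase (chromosome VIII, 143996 to 146062), had 11156, 11582 and 10276 fragments per kb with SM, against 6904, 7079 and 7251 without SM. KRS1, the lysyl-tRNA synthetase (YDR037W, chromosome IV, 525440 to 527215), had 21052, 22861 and 19083 with SM, against 13638, 14939 and 14378 without. All libraries with SM lay above all without it in both genes. Groups did not overlap in 24 of the 48 genes, and overlap was not counted over all genes. The log2 fold changes were 0.64 (SE 0.17, adjusted p = 0.00116) and 0.55 (SE 0.17, adjusted p = 0.00401). By TMM YHR020W rose (0.14, adjusted p = 0.0244) but lost its call in 5 of 6 fits without 1 library, and KRS1 had a log2 fold change of 0.06 (adjusted p = 0.352). The other 15 synthetases did not pass the test by spike-ins.

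SM starves cells for isoleucine and valine, and leucine shares steps of that pathway. The synthetases for these amino acids showed small values by spike-ins and none passed the test. The log2 fold change was 0.19 (SE 0.17, adjusted p = 0.326) for ILS1, −0.1 (SE 0.18, adjusted p = 0.645) for VAS1 and 0.19 (SE 0.18, adjusted p = 0.338) for CDC60. By TMM all 3 fell, with −0.31, −0.6 and −0.3. The 9 synthetase genes with TGACTC in the window had a median of 0.1 by spike-ins, with 2 called higher and 1, THS1, called lower. The 12 without it had a median of −0.03, with 0 called higher and 3 called lower. By TMM the medians were −0.4 and −0.53. With the window of 500 bases the order of the medians turned round, at −0.08 for the 10 with the core and 0.08 for the 11 without it by spike-ins, and −0.58 and −0.42 by TMM. The ranges overlapped by spike-ins, in the first window from −0.65 to 0.64 with the core and from −0.99 to 0.31 without it. With 500 bases they ran from −0.99 to 0.64 and from −0.89 to 0.31.

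Among initiation factors, GCD7 rose with SM. GCD7 encodes the beta subunit of eIF2B (YLR291C, chromosome XII, 718317 to 719462). Its levels were 6611, 7334 and 6199 fragments per kb with SM, against 3839, 3885 and 4095 without SM, a log2 fold change of 0.77 (SE 0.18, adjusted p = 0.000257). It rose by TMM too (0.27, adjusted p = 0.000113), also in each of the 6 fits without 1 library. TIF35, an eIF3 subunit, rose by spike-ins only (0.4, adjusted p = 0.0453; −0.09 by TMM, adjusted p = 0.174), and lost its call in every fit without 1 library. TIF4632, a form of the scaffold eIF4G, fell by 0.56, and SUI3, the beta subunit of eIF2, fell by 0.45 on the log2 scale (adjusted p = 0.0177 and 0.0251). TIF4632 lost its call without WT library 2 of the group without SM (adjusted p = 0.0839) or WT library 3 with SM (0.0883), and SUI3 in 5 of 6 fits without 1 library (adjusted p = 0.0512 to 0.113). SUI3 shares 368 of its 858 coding bases with a feature on the opposite strand, and the labels do not say whether counting used the strand. Smaller parts of ALA1, GLN4, ILS1 and MES1 also lie opposite another feature (81 of 2877, 357 of 2430, 286 of 3219 and 206 of 2256 bases). By spike-ins the eIF2B subunits other than GCD7 did not pass the test, with GCD6 at 0.38 and GCN3 at 0.35. By TMM 3 of the 5 eIF2B genes fell, among them GCN3 (−0.15, edgeR adjusted p = 0.0226). GCD6 was at −0.12 by TMM and did not pass (edgeR adjusted p = 0.138).

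In every group 5 of the 6 elongation genes had the highest mean levels per kb of the 48, with EFT1 the exception. TEF1 and TEF2, which encode the same eEF1A protein, had 59789 ± 3543 and 59854 ± 3056 fragments per kb in WT with SM (SD, n = 3), against 58156 ± 2839 and 59813 ± 1460 in WT without SM. These copies are 99.9% identical in coding sequence, as are EFT1 and EFT2 at 99.8% and TIF1 and TIF2 at 99.5%. Reads can be split between such copies, so values of single copies are uncertain. HYP2, encoding the translation factor eIF5A, was the elongation gene that fell by spike-ins (by 0.38, adjusted p = 0.0406), and by TMM all 6 fell. All of HYP2 overlaps a feature on the opposite strand. Its call was lost in 5 of 6 fits without 1 library.

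**Figure D2:**
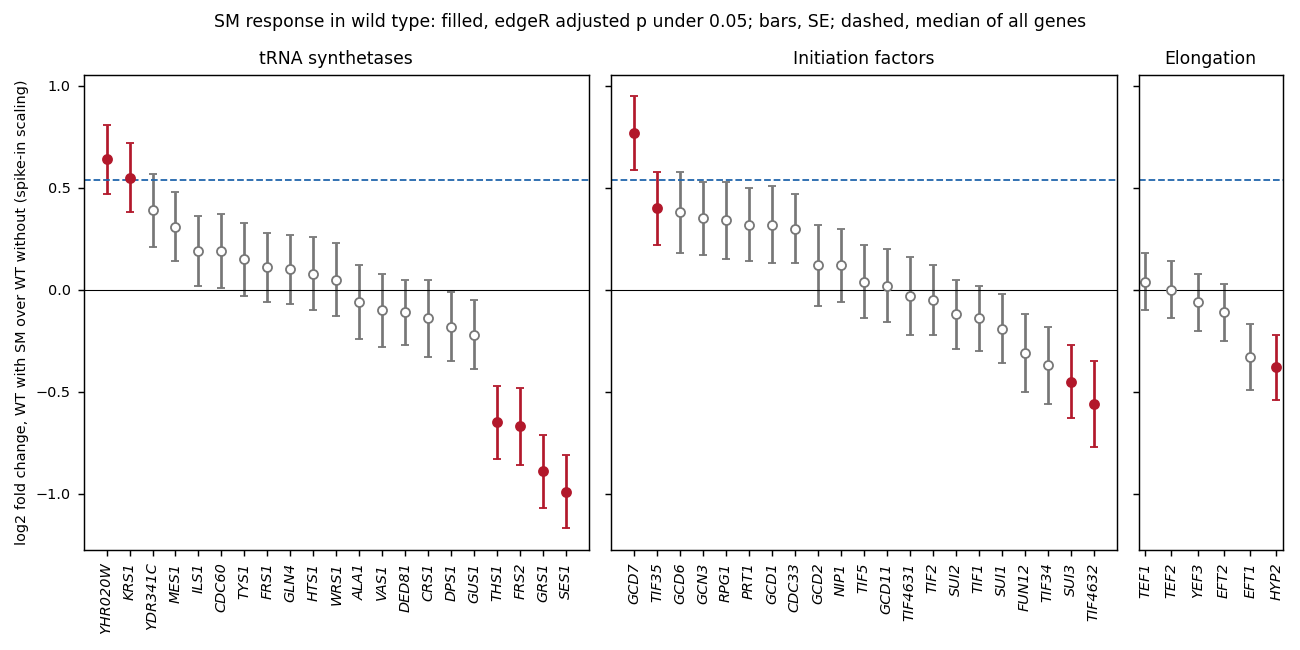
Log2 fold change of each of the 48 genes in WT with SM over WT without SM, scaled by spike-ins, ordered by size within each group of genes. Filled red points passed edgeR's test at an adjusted p under 0.05, bars are SE, and the dashed line is the median of all genes tested, 0.54. Points run from −0.99 (SES1) to 0.77 (GCD7), and 45 of 48 lie below the dashed line.

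Loss of Spt3 left a set of initiation factors higher in SM. By spike-ins 14 of 48 genes rose in spt3 against WT, both with SM, and none fell by edgeR, where 21.7% of all genes rose and 14.0% fell. At an unadjusted p under 0.05 these counts were 19 and 0, and DESeq2 called 16 and 0. By TMM 26 rose and 0 fell, against 33.9% and 31.4% of all genes. The median log2 fold change was 0.31, which is 0.21 above that of all genes. Of the 14, 9 were initiation factors, 5 were synthetases and 0 an elongation factor. Without spt3 library 1 the count was 6, without WT library 3 with SM it was 8, and over all such omissions with TMM it ran from 24 to 27. All genes that rose numbered 753 without spt3 library 1 and 851 without WT library 3 with SM, against 1426 in the main fit.

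GCD6 and FUN12 rose most. GCD6, the catalytic epsilon subunit of eIF2B (YDR211W, chromosome IV, 884727 to 886865), had 6618, 4426 and 4862 fragments per kb in spt3, against 2881, 2938 and 2301 in WT with SM. FUN12, which encodes the subunit-joining GTPase eIF5B (YAL035W, chromosome I, 76427 to 79435), had 12480, 7563 and 8559 in spt3, against 5166, 5724 and 4499 in WT. The groups did not overlap in either gene, as in 22 of the 48 genes, though overlap was not counted over all genes. In both, spt3 library 1 was the highest. The log2 fold changes were 0.97 (SE 0.2, adjusted p = 0.00017) for GCD6 and 0.89 (SE 0.19, adjusted p = 0.000381) for FUN12, and both kept their call without that library. GCD2, the delta subunit of eIF2B, and TIF4631, the more abundant eIF4G gene, followed at 0.77 and 0.7 (adjusted p = 0.00225 and 0.00493). Without spt3 library 1 TIF4631 lost its call (adjusted p = 0.0666), as did GCN3, the alpha subunit of eIF2B (adjusted p = 0.182), which also lost it without WT library 1 or 3 with SM. Of the 5 eIF2B genes 4 rose, the exception being GCD7 at 0.12, the member whose transcript had risen most with SM. Both comparisons use the WT libraries with SM, with opposite sign, so they are not independent and a link was not tested.

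CRS1, the cysteinyl-tRNA synthetase (YNL247W, chromosome XIV, 182875 to 185178), was the synthetase that rose most. Its levels were 6303, 4383 and 4900 fragments per kb in spt3, against 3274, 3439 and 2715 in WT with SM, a log2 fold change of 0.73 (SE 0.19, adjusted p = 0.00331). HTS1 (histidyl) and THS1 (threonyl) rose by 0.6 each, GLN4 (glutaminyl) by 0.51 and SES1 (seryl) by 0.48. Without spt3 library 1, THS1 (adjusted p = 0.0513), GLN4 (0.101) and SES1 (0.168) lost their call. GLN4 also lost it without WT library 1 or 3 with SM, and SES1 in 5 of 6 fits without 1 library. THS1 and SES1, low with SM in WT, stood at 9050 ± 1734 and 5403 ± 854 in spt3 with SM, 5972 ± 507 and 3874 ± 375 in WT with SM, and 9361 ± 138 and 7696 ± 280 in WT without SM (SD, n = 3 each). Here too the same WT libraries with SM enter both comparisons. ILS1, VAS1 and CDC60 had log2 fold changes of 0.18, 0.37 and 0.34 and did not pass the test by spike-ins, while by TMM VAS1 (0.26) and CDC60 (0.23) rose. Among the 9 synthetases with TGACTC 3 rose by spike-ins (median 0.25). Among the 12 without it 2 rose (median 0.32), where 21.7% of all genes rose. The TMM counts were 5 and 8 (medians 0.15 and 0.21), where 33.9% of all genes rose.

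Loss of Spt8 gave the same direction with fewer calls, both among the 48 genes and among all genes. GCD6, FUN12 and GLN4 rose by spike-ins, 3 of 48 genes, and 0 fell by edgeR, where 6.57% of all genes rose and 5.58% fell. The share of members that rose was thus near that of all genes. At an unadjusted p under 0.05 the counts were 12 and 0, and DESeq2 called 4 and 0. By TMM 23 rose and 0 fell, against 23.9% and 21.1% of all genes. The median was 0.26, which is 0.14 above that of all genes. GCD6 had 4354, 4710 and 4319 fragments per kb in spt8, against 2881, 2938 and 2301 in WT with SM (log2 fold change 0.72, SE 0.2, adjusted p = 0.0115). FUN12 had 8045, 8563 and 8220 in spt8, against 5166, 5724 and 4499 in WT (0.69, SE 0.19, adjusted p = 0.0139). GLN4 had 8774, 10461 and 9735 in spt8, against 6530, 7567 and 6220 in WT (0.51, SE 0.17, adjusted p = 0.0449). In none of the 3 did the groups overlap, as in 29 of the 48 genes, most of which were not called. Overlap was not counted over all genes. By spike-ins the count was 0 without WT library 3 with SM or spt8 library 2, at most 2 in the other fits without 1 library, where GLN4 lost its call, and 21 when spt8 and WT with SM were fitted alone. In the main fit 431 of all genes rose. This became 121 without WT library 3 with SM, 118 without spt8 library 2 and 1579 in the 2-group fit. Over omissions with TMM the count of members ran from 18 to 20.

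Spt3 and Spt8 deletions were compared directly, and by spike-ins 0 of 48 genes differed by edgeR, 0 at an unadjusted p under 0.05 and 0 by DESeq2, where 1.1% of all genes were higher in spt3 and 2.39% lower. For GCD6 the log2 difference, spt3 over spt8, was 0.25 with a 95% interval from −0.13 to 0.63. By TMM 9 were higher in spt3 and 0 lower, against 16.9% and 14.3% of all genes, among them GCD2 (0.34, adjusted p = 0.00278), CRS1 (0.27, adjusted p = 0.00792) and GCD6 (0.26, adjusted p = 0.0122). Without spt3 library 1 or spt8 library 3 the TMM count was 4, and without spt3 library 3 or spt8 library 2 it was 5.

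**Figure D3:**
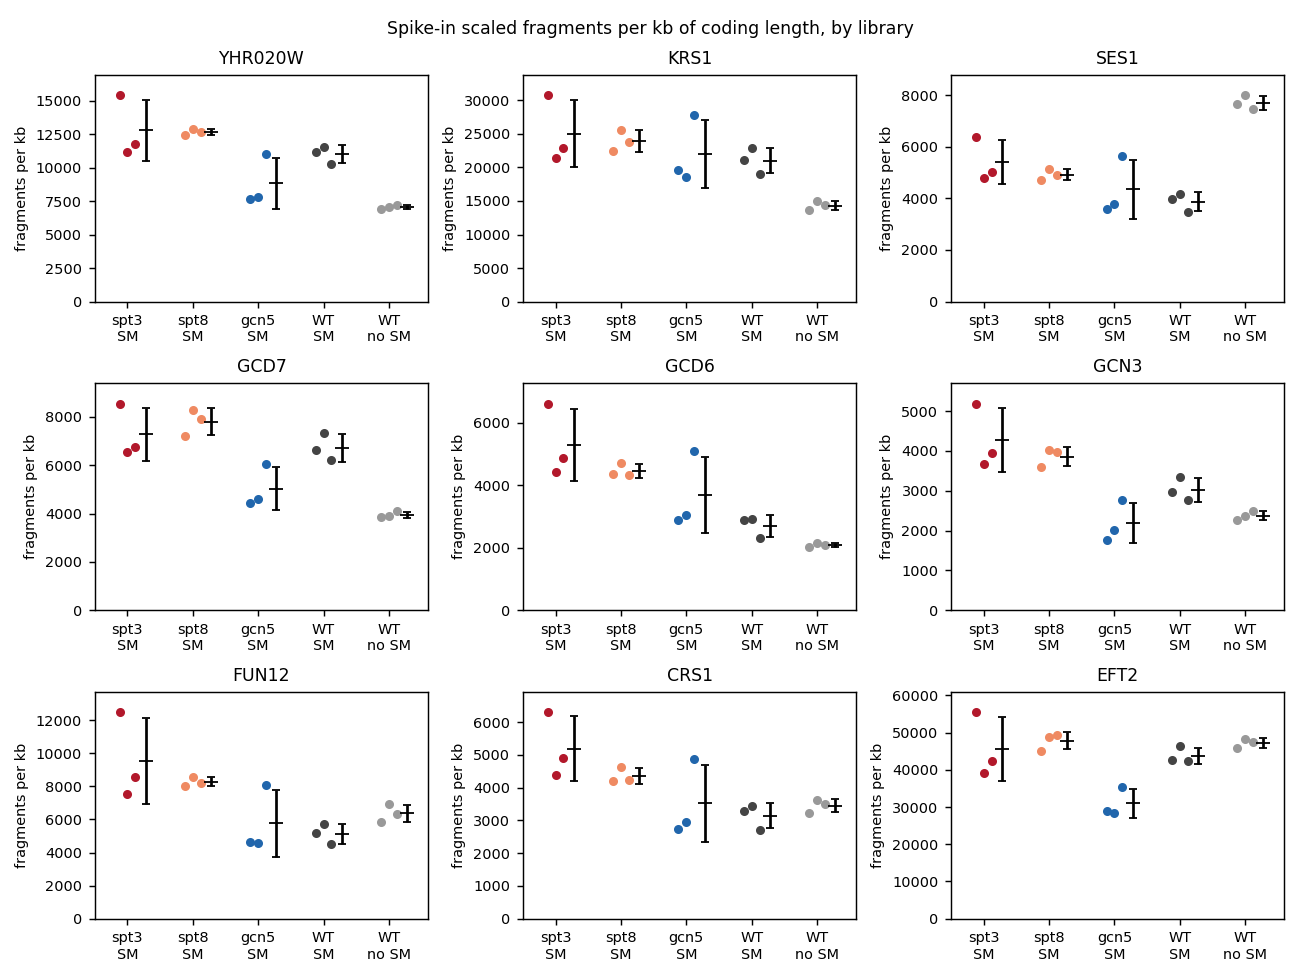
Spike-in scaled fragments per kb of coding length (vertical axis from 0) of 9 genes in every library, for the 5 groups. Dots are libraries in the order 1 to 3 and the black mark is the mean ± SD (n = 3). Library 1 of spt3 and library 3 of gcn5 are the highest of their groups in each panel, and SES1 is highest in WT without SM.

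Loss of Gcn5 had another outcome. By spike-ins 7 of 48 genes fell and 0 rose by edgeR, where 30.4% of all genes fell and 10.5% rose. At an unadjusted p under 0.05, 10 were lower and 1 was higher, and DESeq2 called 8 lower and 0 higher. The median was −0.18 against −0.19 over all genes. By TMM 16 rose and 11 fell, against 34.2% and 33.4% of all genes, so the share that rose was near that of all genes. Without gcn5 library 3, which stood apart, 22 fell, while leaving out either of the other gcn5 libraries or WT library 1 or 2 with SM gave 3 each. The count of all genes that fell moved as well, to 3438 of 6564 without gcn5 library 3. It ran from 1460 to 1658 in those other fits, against 1994 with all libraries.

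EFT1 and EFT2, which encode the same translocase eEF2, fell by 0.6 and 0.5 on the log2 scale (adjusted p = 0.00296 and 0.00497). EFT2 had 29004, 28478 and 35476 fragments per kb in gcn5, against 42581, 46308 and 42286 in WT with SM, with no overlap, as in 9 of the 48 genes. The share of all genes without overlap was not counted. DED81, the asparaginyl-tRNA synthetase (YHR019C, chromosome VIII, 141894 to 143558), had 7543, 7926 and 9815 in gcn5, against 12371, 13229 and 11720 in WT (log2 fold change −0.56, SE 0.16, adjusted p = 0.00567). These 3 genes kept their call in each fit without 1 library. TIF5, which encodes eIF5, fell by 0.5, FRS2 by 0.49, GCN3 by 0.47 and GUS1, the glutamyl-tRNA synthetase, by 0.41, and each lost its call in at least 4 such fits. All 7 fell by TMM as well. GCD6 went the other way by TMM (0.62, adjusted p = 1.13e-06), and by spike-ins its value was 0.44 (adjusted p = 0.0671).

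Set against each other, spt3 and gcn5 differed at most of these genes by spike-ins. Of 48 genes 32 were higher in spt3 than in gcn5 and 0 lower by edgeR, where 37.3% of all genes were higher and 9.72% lower. Without spt3 library 1 the count was 17, without gcn5 library 1 or 2 it was 16 and 17, without gcn5 library 3 it was 45, and a fit of these 2 groups alone gave 7. Over all genes these fits gave, in the same order, 1583, 1644, 1688, 4225 and 1381 higher, against 2449 in the main fit. By TMM 27 were higher and 4 lower, against 33.6% and 30.6%. In spt8 against gcn5, which share a library set, 26 were higher and 0 lower by spike-ins (37.1% and 7.75% of all genes), and 19 higher and 8 lower by TMM (31.1% and 31.3%). For spt8 against gcn5 the spike-in count was 14 without spt8 library 2, 17 without spt8 library 3, 13 without gcn5 library 1, 12 without gcn5 library 2, 43 without gcn5 library 3 and 16 in a fit of these 2 groups alone. The same fits gave 1763, 1877, 1635, 1636, 4254 and 1733 of all genes higher, against 2435 in the main fit. At an unadjusted p under 0.05 no member was lower in either comparison, and DESeq2 with spike-ins called 0 lower in both. These comparisons and those with WT share libraries, so the counts are not independent of each other.

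GCN3 and TIF5 differed most between spt3 and gcn5. GCN3 (YKR026C, chromosome XI, 488738 to 489655), whose subunit lets eIF2B sense phosphorylated eIF2, had 5185, 3681 and 3935 fragments per kb in spt3 and 3586, 4016 and 3968 in spt8. It had 1774, 2025 and 2759 in gcn5 and 2970, 3344 and 2754 in WT, all with SM. The spt3 and spt8 libraries all lay above the gcn5 libraries. Groups did not overlap in 22 of the 48 genes for spt3 against gcn5 and in 24 for spt8 against gcn5. Overlap over all genes was not counted in these comparisons either. The log2 difference was 0.96 (SE 0.18, adjusted p = 4.63e-05) for spt3 over gcn5 and 0.82 (SE 0.18, adjusted p = 0.000417) for spt8 over gcn5. For TIF5 these were 0.96 and 0.75 (adjusted p = 4.6e-05 and 0.000993), and by TMM 0.66 and 0.43 for TIF5 and 0.66 and 0.5 for GCN3. SUI3 was the member with the lowest spt3 to gcn5 value. It did not pass the test by spike-ins (−0.16, adjusted p = 0.47) and was lower in spt3 by TMM (−0.46, adjusted p = 2.22e-06).

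**Figure D4:**
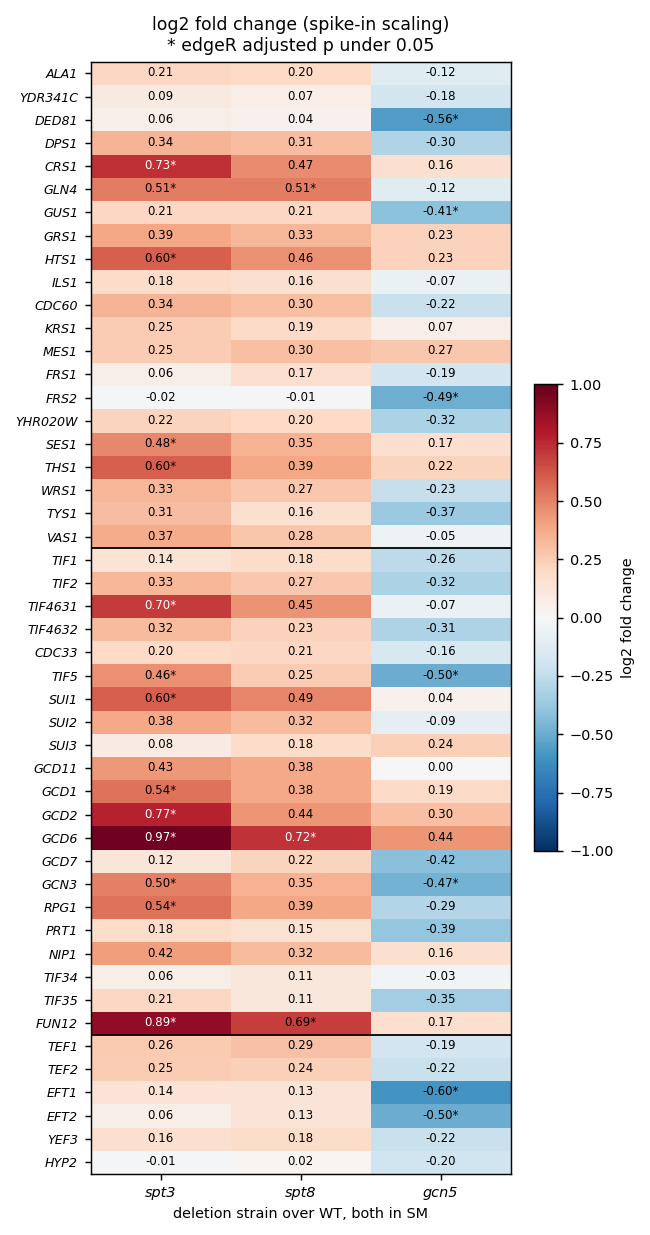
Log2 fold change of the 48 genes in spt3, spt8 and gcn5 over WT, all with SM and scaled by spike-ins, with synthetases at the top, initiation factors in the middle and elongation factors at the bottom. Red is higher and blue lower in the deletion strain, and an asterisk marks an edgeR adjusted p under 0.05. The asterisks number 14 in spt3 and 3 in spt8, all red, and 7 in gcn5, all blue. The 3 columns share the WT libraries.

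Ratios of 2 genes inside a library do not depend on the scale between libraries. The pairs below were chosen after values were seen, and with 3 libraries against 3 a 2-sided exact permutation test cannot go below p = 0.1, so they are given as levels. FRS1 and FRS2 encode the beta and alpha subunits of phenylalanyl-tRNA synthetase. The ratio of FRS2 to FRS1 per kb was 0.434, 0.421 and 0.417 in WT with SM, against 0.752, 0.687 and 0.744 in WT without SM. It was 0.397 ± 0.024 in spt3, 0.376 ± 0.021 in spt8 and 0.346 ± 0.0036 in gcn5 (SD, n = 3 each). The transcripts of these subunits were therefore further from equal in every group with SM than in the group without it.

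YHR020W and DED81 are neighbours read in opposite directions, with 437 bases between their start codons, so both share the region printed above for YHR020W. The ratio of YHR020W to DED81 was 0.902, 0.875 and 0.877 in WT with SM, against 0.537, 0.527 and 0.515 in WT without SM. Every library with SM was above every library without it. The deletion libraries were all above WT with SM, at 0.985 ± 0.009 in spt3, 0.991 ± 0.015 in spt8 and 1.04 ± 0.07 in gcn5.

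Within eIF2B the proportions of the subunit transcripts differed between strains. The ratio of GCN3 to GCD6 was 0.783, 0.832 and 0.809 in spt3, 0.824, 0.853 and 0.919 in spt8, and 0.613, 0.662 and 0.542 in gcn5, against 1.03, 1.14 and 1.2 in WT with SM. In WT without SM it was 1.14 ± 0.049, which overlaps the WT libraries with SM. The ratio was lower than WT in each deletion strain and lowest in gcn5. The ratio of GCD7 to GCD6 was 1.39 ± 0.094 in spt3, 1.75 ± 0.086 in spt8, 1.41 ± 0.19 in gcn5, 2.49 ± 0.2 in WT with SM and 1.9 ± 0.082 in WT without SM.

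Other pairs moved with SM as well. TIF4632 to TIF4631, the eIF4G forms, which are 60.0% identical in coding sequence, stood at 0.355 ± 0.004 in WT with SM and 0.512 ± 0.0099 in WT without SM. The ratio of SUI3 to SUI2, the beta and alpha subunits of eIF2, was 0.335 ± 0.014 in spt3, 0.371 ± 0.02 in spt8 and 0.511 ± 0.03 in gcn5, against 0.408 ± 0.01 in WT with SM. In WT without SM it was 0.514 ± 0.041. In spt3 and spt8 all libraries were below those of WT with SM, and in gcn5 all were above these and overlapped WT without SM. GRS2 is a little expressed relative of GRS1 and no member of the 48 genes. Its ratio to GRS1 was 0.145 ± 0.014 in WT with SM and 0.0566 ± 0.00059 in WT without SM, and 0.0818 ± 0.0058 in gcn5 with SM.

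**Figure D5:**
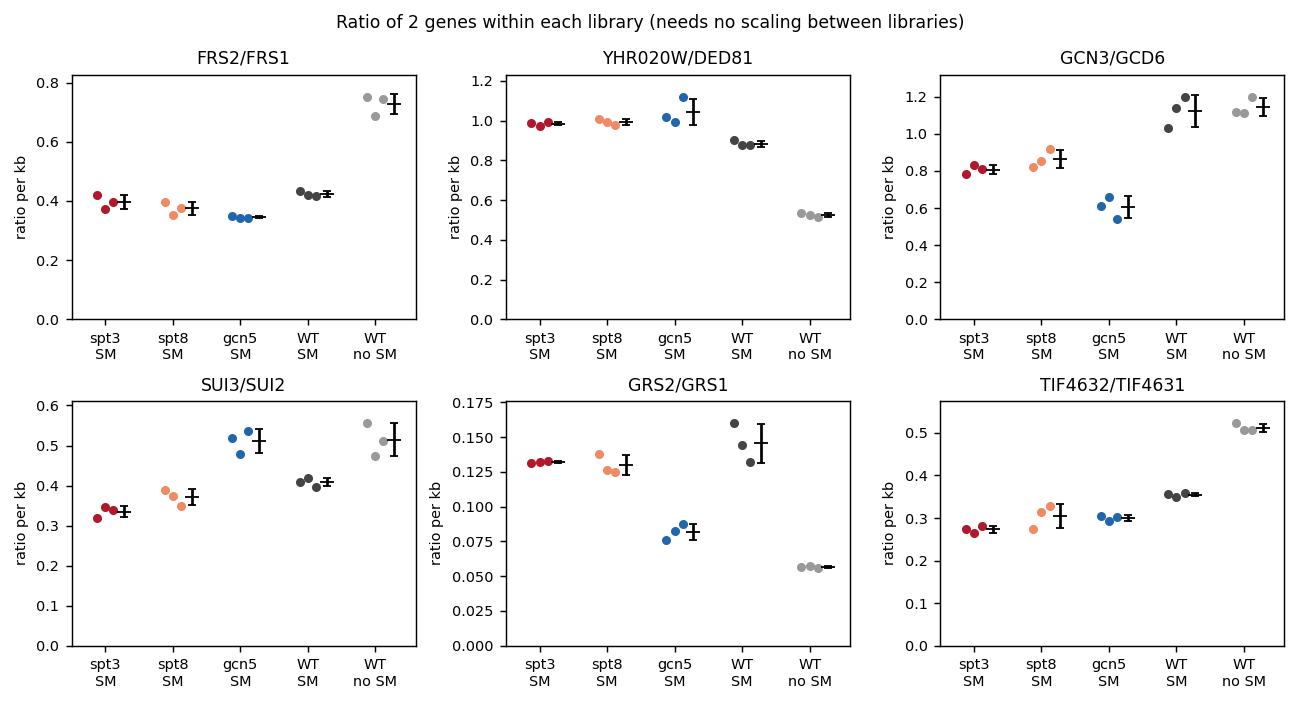
Ratio of the levels per kb of 2 genes within each library (vertical axis from 0) for 6 pairs and the 5 groups. Dots are libraries and the black mark is the mean ± SD (n = 3). FRS2 to FRS1 is 0.424 in WT with SM and 0.728 in WT without SM, and GCN3 to GCD6 is lowest in gcn5, at 0.606.

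Related genes outside the 48 were counted for comparison. Of 19 other translation genes, 3 rose and 6 fell with SM in WT by spike-ins (55.7% and 7.57% of all genes), and those that fell included TIF11, which encodes eIF1A (−0.89, adjusted p = 4.05e-05), and TEF4, an eEF1B gamma subunit gene (−0.76, adjusted p = 8.17e-05). In spt3 5 of the 19 rose and 0 fell (21.7% and 14.0% of all genes), in spt8 2 rose and 0 fell (6.57% and 5.58%), and in gcn5 2 rose and 6 fell (10.5% and 30.4%), with CAM1, the other eEF1B gamma gene, at −1.03 (adjusted p = 6.33e-06). Of 14 mitochondrial synthetase genes 6 rose and 0 fell with SM in WT by spike-ins (55.7% and 7.57% of all genes). Their median was 0.38, against 0.54 over all genes. The TMM counts were 1 higher and 5 lower (41.3% and 37.3% of all genes). In gcn5 5 of the 14 fell by spike-ins, a share near that of all genes. The 138 ribosomal protein genes had a median of 0.23 with SM in WT, −0.11 in spt3, 0.01 in spt8 and −0.41 in gcn5, against medians of 0.01, 0.31, 0.26 and −0.18 for the 48 genes. In spt3 the 48 genes thus stood above all genes by 0.21 and the ribosomal protein genes below them by 0.22. GCN4 itself rose with SM in WT by spike-ins (0.6, SE 0.16, adjusted p = 0.00153), which is 0.07 above the median of all genes, and by TMM its value was 0.1 (adjusted p = 0.105). By spike-ins its values in spt3 (0.27, adjusted p = 0.198), spt8 (0.29, adjusted p = 0.253) and gcn5 (0.36, adjusted p = 0.0701) did not pass the test. By TMM it rose in all 3, by 0.17 in spt3 (adjusted p = 0.0182), 0.17 in spt8 (adjusted p = 0.0265) and 0.57 in gcn5 (adjusted p = 2.53e-07).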

How the data were processed

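Per the sample labels, ERCC spike-ins were added to equal amounts of total RNA, rRNA was depleted, and stranded libraries were sequenced as read pairs. The authors deposited raw fragment counts per feature for 6692 yeast features and 92 ERCC species. Even numbers made up 100.0% of ERCC values and 50.5% of yeast values, and the reason was not tested. Per the submitters' processing notes, STAR, SAMtools and DESeq2 were used with sacCer3, and neither versions nor the strand setting are stated there. All 15 libraries were used. Size factors were medians of ratios over the 74 ERCC species seen in every library. Genes kept by filterByExpr were tested with edgeR 4.0.16 quasi-likelihood (limma 3.58.1, R 4.3.3) with all 5 groups in the fit and Benjamini-Hochberg adjustment over 6564 genes, with calls at 0.05. SE is that of the log2 fold change, derived from the F statistic. The coefficient of variation between libraries was 16.1% by spike-ins and 7.9% by TMM, where 6562 genes were tested. Levels are scaled counts per 1000 bases of coding length. Sequences are from RefSeq R64, in which all 48 genes have the coordinates of the table, and gene starts are start codons, so windows can include untranslated leader. No protein table was used, and paralogs were compared by coding sequence. The edgeR procedure was tested on simulated data. DESeq2 was 1.42.0, Python 3.11.15, numpy 2.4.6, pandas 2.3.3, scipy 1.17.1 and matplotlib 3.10.9.

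The named genes are, per comparison, the called members with the largest change in each group of genes, the isoleucine, valine and leucine synthetases, copies of near-identical product, and subunits set beside them. The genes and lists were chosen with earlier results of these data known. Alternatives were TMM scaling, no filter, DESeq2 with spike-in or its own factors, 2-group fits, a replicate block and omission of each library. The TMM omissions, the ratio pairs, the 500-base motif window and the printed windows were chosen after values were seen. The sequence upstream of 1 gene is not reported here.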

Additional observations from a re-analysis of the deposited data

How the results depend on the processing

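Direction and calls depended on the scale, and counts of calls also on which groups and libraries were in the fit. The median of the 48 genes relative to all genes, which a change of scale alone cannot move, ran over the alternatives from −0.55 to −0.5 with SM in WT, from 0.17 to 0.22 in spt3, from 0.13 to 0.15 in spt8 and from −0.01 to 0.07 in gcn5. Counts of members called higher and lower moved as follows. With SM in WT (4 and 7 by spike-ins) TMM gave 2 and 41, DESeq2 with its own factors 1 and 45, the 2-group fit 13 and 11, and omissions of 1 library 3 to 5 higher and 4 to 7 lower. In spt3 (14 and 0) TMM gave 26 and 0, DESeq2 with its own factors 26 and 1, and omissions 6 to 19 higher. In spt8 (3 and 0) TMM gave 23, DESeq2 with its own factors 23, the 2-group fit 21 and omissions 0 to 2. In gcn5 (0 and 7) TMM gave 16 and 11, DESeq2 with its own factors 16 and 12, the 2-group fit 3 lower, and omissions 0 to 1 higher and 3 to 22 lower. In spt3 against spt8 (0 and 0) TMM gave 9 and 0 and DESeq2 with its own factors 8 and 1. In spt3 against gcn5 (32 and 0) TMM gave 4 lower, DESeq2 with its own factors 5 lower, the 2-group fit 7 higher and omissions 16 to 45 higher. In spt8 against gcn5 (26 and 0) TMM gave 8 lower, DESeq2 with its own factors 8 lower, the 2-group fit 16 higher and omissions 12 to 43 higher. The low-count filter changed no call of a member. Counts over all genes moved too, as given above for several of these fits.

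Same-numbered libraries did not pair: the correlations of their deviations ran from −0.48 to 0.41 by spike-ins, and 10 of 30 were over 0.1. With a replicate block 4 members fell in gcn5. With the block and TMM together, 2 rose and 41 fell with SM in WT, 26 rose and 1 fell in spt3, 20 rose in spt8, 16 rose and 11 fell in gcn5, 7 were higher in spt3 than spt8, and 4 and 6 were lower than in gcn5 for spt3 and spt8.

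Named values that changed sign are listed here, and for those not given elsewhere the cause was not tested. With SM in WT, TMM, with and without the block, gave −0.31 for ILS1, −0.3 for CDC60, −0.39 for FRS1, −0.12 for GCD6, −0.15 for GCN3, −0.09 for TIF35, −0.45 for TEF1 and −0.49 for TEF2. All of these but GCD6 and TIF35 passed edgeR's test by TMM. DESeq2 with its own factors gave −0.39, −0.39, −0.47, −0.21, −0.24, −0.18, −0.54 and −0.58 for these genes in that order, and −0.03 for KRS1. All but KRS1 (adjusted p = 0.504) passed DESeq2's test at an adjusted p under 0.05. TIF35 was thus called lower there (adjusted p = 0.00703) and higher by edgeR with spike-ins. In spt3, EFT2 was −0.05 by TMM with and without the block and −0.08 with DESeq2's own factors, which also gave −0.02 for GCD7 and 0.00 for TIF1. In gcn5, TMM with and without the block gave 0.12 for ILS1, 0.13 for VAS1 and 0.02 for TEF1, and DESeq2's own factors 0.11, 0.12 and 0.02. When a library was left out, the values with SM in WT ran from −0.01 to 0.08 for TEF1 and from −0.04 to 0.02 for TEF2. In spt3 they ran from −0.02 to 0.31 for ILS1, −0.22 to 0.1 for FRS2, −0.01 to 0.19 for GCD7, 0.00 to 0.23 for EFT1, −0.1 to 0.16 for EFT2 and −0.09 to 0.05 for HYP2. In gcn5 they ran from −0.31 to 0.05 for ILS1 and −0.33 to 0.08 for VAS1. FUN12 in spt3 against spt8 ran from −0.04 to 0.35, and SUI3 from −0.28 to 0.01 in spt3 against gcn5 and −0.16 to 0.1 in spt8 against gcn5. None of the sign changes by omission passed the test.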
